A study of Mus musculus with 20 samples.

Results

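The HoxD locus on mouse chromosome 2 was described from 14 lists of accessible chromatin regions, by the entries that overlapped mm9 chr2:73750000-75600000. The window was chosen by position, with earlier results from these lists already known, so its counts and values are descriptions and were not tested. Of 311468 entries in the 14 lists, 148 lay in the window. They were 140 peaks from 4 peak lists and 8 entries from 4 other lists, and the other 6 lists had no entry there. The window was read in 3 segments: a centromeric desert of 750 kb, the cluster segment of 110 kb (mm9 chr2:74500000-74610000) and a telomeric desert of 990 kb. They held 34, 19 and 95 entries.

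The lists come from ATAC-seq, in which a transposase cuts open chromatin and the cut ends are sequenced. The normal cells were FACS-sorted from mammary tissue of C57BL6J mice, 2 samples per type: fetal mammary stem cells (fMaSC) from embryos at day 18, and from adults mature luminal cells, luminal progenitor cells and basal cells. Each type has 1 peak list called on both samples together, plus a list named UAR and a list named URR, abbreviations that the labels do not spell out. Another pair of lists gives regions open and regions closed in luminal SOX10-high cells of PY230, a C57BL6J mammary tumour line grown in culture and transplanted into mice of the same strain. In the labels the open list goes with 3 luminal SOX10-high samples of these tumours, and the closed one with 3 that are luminal SOX10-low. PY230 is 1 cell line, so its samples share an origin. None of the 14 lists belongs to the basal SOX10-high PY230 tumours, the bulk tumour, the 2D culture or the basal SOX10-high C3-1-TAg tumours, which arose in FVB mice, and these were not analysed here. The lists carry no value per sample, so the depth and the replicate error are unknown, and the sorted types could not be checked against expression of their markers.

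The HoxD cluster is a row of Hoxd genes, which encode homeodomain transcription factors and are switched on in an order that follows their position. Enhancers for these genes lie in the large stretches of DNA on both sides, with those of the centromeric desert known for the digits and genitals and those of the telomeric desert for the proximal limb and other tissues. Hox9 group genes, Hoxd9 among them, are needed for a working mammary gland, and an enhancer in the telomeric desert has been described for Hoxd9 in the embryonic mammary bud.

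No mm9 annotation was used, so no peak was assigned to a gene or called exonic, intronic or intergenic, and gene names are given by order only. In the RefSeq annotation of GRCm38.p6, another build, genes were sorted by their leftmost annotated base. From the centromeric side that gives Atp5g3, Lnpk, Evx2, Hoxd13, Hoxd12, Hoxd11, Hoxd10, Hoxd9, Hoxd8, Hoxd3, Hoxd4, Mir10b, Haglr, Hoxd1, Mtx2, Hnrnpa3 and Nfe2l2. Most non-coding genes, the pseudogenes and Gm50595, a protein-coding gene between Mtx2 and Hnrnpa3, are left out. A leftmost base depends on the longest annotated form of a gene, so Hoxd3 standing before Hoxd4 need not be the order of their promoters. In the member list of the locus Hoxd4 comes before Hoxd3. Evx2 encodes another homeodomain factor. Hoxd13 to Hoxd9 belong to the group expressed toward the posterior and distal parts of the embryo, and Hoxd4, Hoxd3 and Hoxd1 to the anterior group, with Hoxd8 between them. Mir10b is a microRNA gene, and Haglr a long non-coding RNA gene beside Hoxd1. Of the flanking genes, Atp5g3 encodes a subunit of the mitochondrial ATP synthase, Lnpk an endoplasmic reticulum protein, Mtx2 a mitochondrial import protein, Hnrnpa3 an RNA-binding protein and Nfe2l2 the oxidative stress factor NRF2. From Atp5g3 to Nfe2l2 that annotation lists 52 genes, of which 16 are protein-coding and 25 are long non-coding RNA genes. Another 7 are pseudogenes and 1 is a transcribed pseudogene.

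All 10 member genes matched the RefSeq promoter table (GRCm38.p6), with 11 promoters of 300 bases each, since Hoxd11 has 2. A CpG count per promoter ran from 4 to 37 with a median of 20.0, against a median of 7 over all 32851 promoters of the table. Hoxd13 had 37 CpGs, Hoxd1 29, Hoxd10 22, Hoxd9 and Hoxd3 20 each, Evx2 16, Hoxd12 13, Hoxd8 6 and Hoxd4 4, and the 2 Hoxd11 promoters had 4 and 25. The 250 bases upstream of 3 starts, all on the plus strand, are shown to make this range visible: the promoter richest in CpG, that of the gene known from the mammary bud, and a CpG-poor neighbour. Capitals mark each CG.
Hoxd13: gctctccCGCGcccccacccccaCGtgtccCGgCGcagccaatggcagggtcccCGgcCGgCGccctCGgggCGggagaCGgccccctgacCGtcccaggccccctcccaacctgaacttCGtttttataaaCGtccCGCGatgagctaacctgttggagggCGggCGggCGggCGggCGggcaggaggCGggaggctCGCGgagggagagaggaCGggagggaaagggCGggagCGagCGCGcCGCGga
Hoxd9: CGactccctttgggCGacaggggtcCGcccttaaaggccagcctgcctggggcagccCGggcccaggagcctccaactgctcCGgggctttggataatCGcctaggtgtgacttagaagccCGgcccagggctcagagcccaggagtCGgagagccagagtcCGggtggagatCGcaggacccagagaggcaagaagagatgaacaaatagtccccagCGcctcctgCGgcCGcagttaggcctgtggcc
Hoxd8: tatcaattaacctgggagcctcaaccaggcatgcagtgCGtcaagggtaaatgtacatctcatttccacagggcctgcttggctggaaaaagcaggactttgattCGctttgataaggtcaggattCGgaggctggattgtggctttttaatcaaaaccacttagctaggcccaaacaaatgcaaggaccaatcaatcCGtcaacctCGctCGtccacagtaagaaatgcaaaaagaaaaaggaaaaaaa
These 250 bases hold 31 CpGs for Hoxd13, 13 for Hoxd9 and 6 for Hoxd8. No peak is placed on them, because the lists and these sequences belong to different builds.

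The plot of all entries shows where the 4 peak lists and the 4 other lists had entries along the window.

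**Figure D1:**
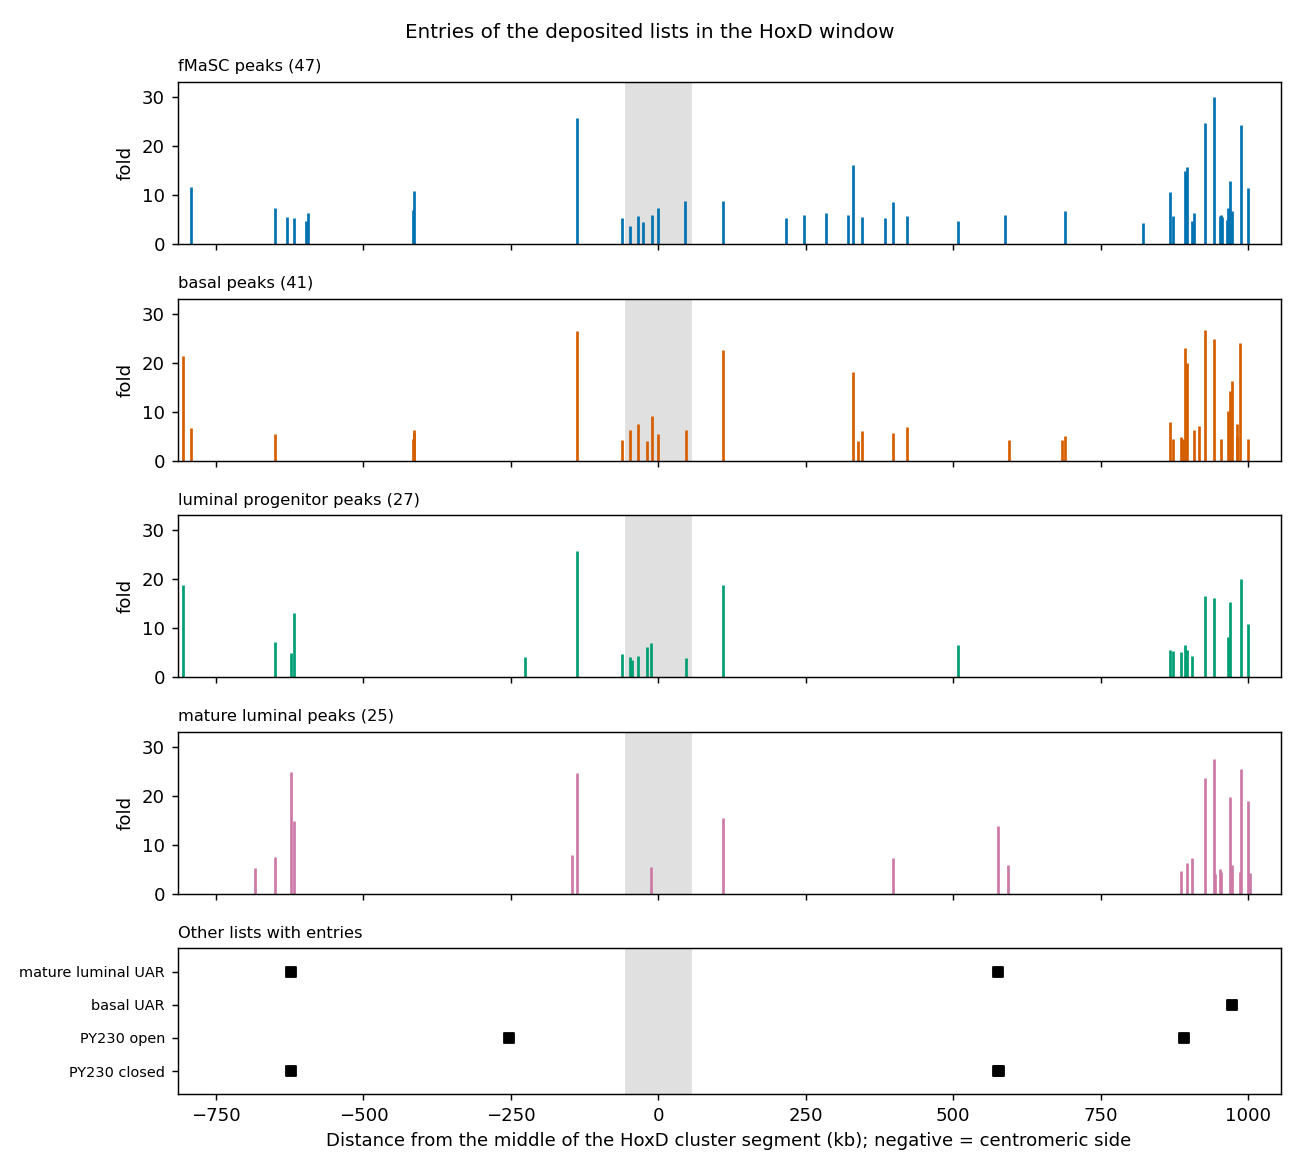
Entries of the deposited lists against distance in kb from the middle of the cluster segment (shaded); each line is a peak with its fold on the vertical axis, and each square is an entry of another list. The fMaSC and basal lists had 31 and 27 peaks on the telomeric side against 14 and 18 for the luminal progenitor and mature luminal lists, the mature luminal list had 1 peak in the shaded segment, and the square of the closed list on the right stands for 2 entries 1.5 kb apart.

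In the cluster segment, 3 of the 4 normal cell types had 6 peaks each and mature luminal cells had 1. That is 54.5 peaks per Mb for fMaSC, basal and luminal progenitor cells and 9.09 per Mb for mature luminal cells. Over all nuclear chromosomes the lists held 31.0, 31.2, 23.3 and 23.9 peaks per Mb in the same order. So the luminal progenitor and mature luminal lists were of nearly equal size genome-wide but differed in this segment. Peaks covered 2.82 kb of the segment in fMaSC, 4.21 kb in basal, 3.16 kb in luminal progenitor and 0.232 kb in mature luminal cells. Merged over the types, the peaks made 8 union regions, of which 6 held a peak of each of fMaSC, basal and luminal progenitor cells, not the same 6 for each. Mature luminal cells had a peak in 1 of 8 (12.5%, exact binomial 95% interval 0.316 to 52.7%), against 45.9% of 128800 union regions genome-wide. The interval covers counting error of regions only, and neighbouring regions are not independent. A peak list reflects whole sorted populations, so fewer cells with an open site and less opening per cell cannot be told apart.

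Each peak's fold is the authors' own value, an enrichment over the background of their peak calling, and it ranks peaks only within 1 list. The list medians were 7.60 for fMaSC, 7.98 for basal, 6.86 for luminal progenitor and 8.47 for mature luminal cells. Going from the Evx2 side to the Hoxd1 side, the first union region of the segment, at mm9 chr2:74506201-74506865, had folds of 3.80 in fMaSC, 6.25 in basal and 4.16 in luminal progenitor cells. At chr2:74510923-74511267 only luminal progenitor cells had a peak, with a fold of 3.53. The region at chr2:74519731-74521167 was shared by fMaSC (5.82), basal (7.54) and luminal progenitor cells (4.36). These 3 regions had no mature luminal peak.

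Further along, chr2:74529703-74529917 had an fMaSC peak alone, with a fold of 4.56. The region at chr2:74535727-74536535 was shared by basal cells at a fold of 4.10 and luminal progenitor cells at 6.24. At chr2:74543187-74543957 all 4 types had a peak, with folds of 6.08 in fMaSC, 9.05 in basal, 7.07 in luminal progenitor and 5.48 in mature luminal cells. This was the single mature luminal peak of the segment. It was also the segment's highest fold for both basal and luminal progenitor cells.

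At chr2:74553811-74554196 the peaks belonged to fMaSC (7.34) and basal cells (5.39). No list had a peak over the next 46.5 kb, from 74554197 to 74600686. The last region, chr2:74600687-74601546, had folds of 8.86 in fMaSC, 6.25 in basal and 3.95 in luminal progenitor cells, and its fMaSC peak was the highest of that type in the segment. Across the 8 regions, the median fold was 5.95 for the 6 fMaSC peaks, 6.25 for the 6 basal and 4.26 for the 6 luminal progenitor peaks. Each median was below that of its list. One fMaSC, 1 basal and 1 luminal progenitor peak, and no mature luminal peak, reached the median of its list, and with only the strongest 30015 peaks of each list 1 luminal progenitor peak was left in the segment and none of the other types.

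**Figure D2:**
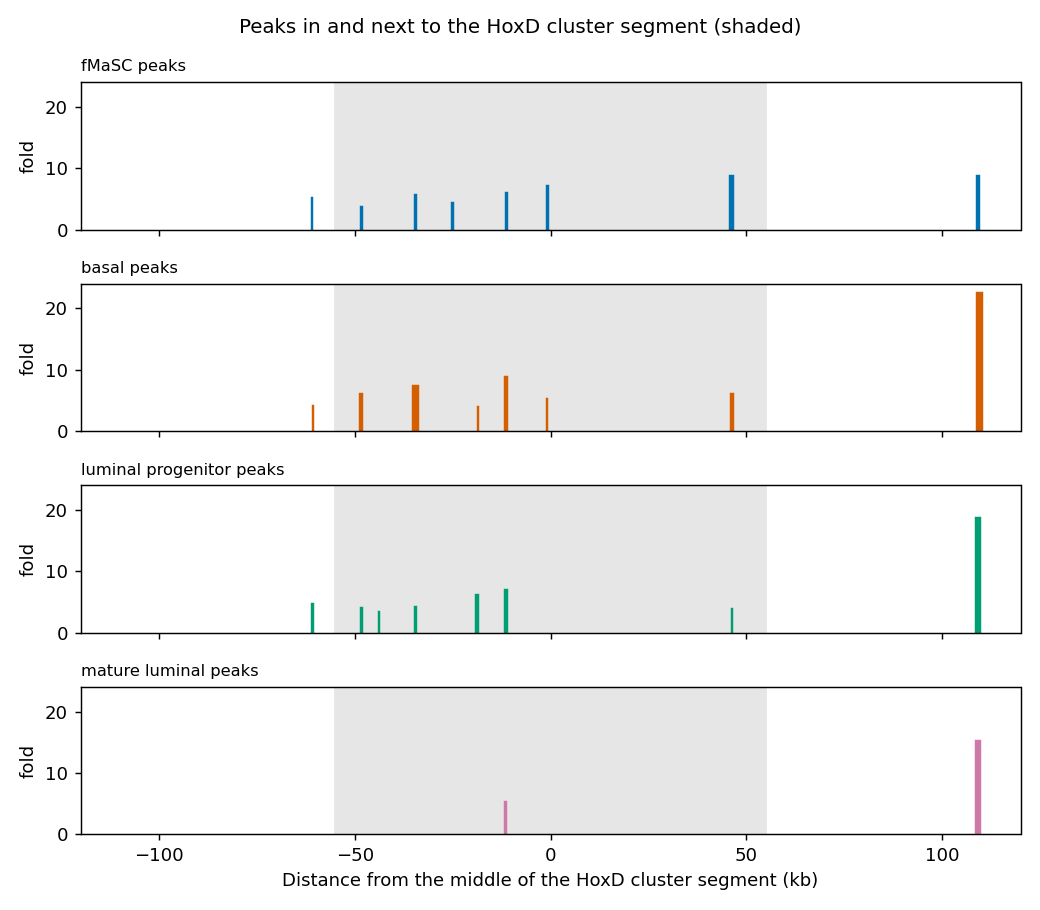
Peaks in and next to the cluster segment (shaded), by distance in kb from its middle, with the fold on the vertical axis and narrow peaks drawn at a minimum bar width. The shaded segment holds 6 peaks for each of 3 types and 1 for mature luminal cells, and the bar on the right is the first peak region beyond the cluster, with folds of 8.86, 22.6, 18.9 and 15.4.

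Just outside the cluster segment on the Evx2 side, chr2:74493696-74494400 repeated this set of types, with folds of 5.32 in fMaSC, 4.31 in basal and 4.78 in luminal progenitor cells. The nearest mature luminal peak on that side lay 82.4 kb from the edge of the cluster segment. On the Hoxd1 side the first region was chr2:74663495-74665018, which all 4 types shared. Its folds were 8.86 in fMaSC, 22.6 in basal, 18.9 in luminal progenitor and 15.4 in mature luminal cells. Whether it lies at Mtx2, the protein-coding gene after Hoxd1, is not known, since no gene was placed in mm9. Moving the segment's edges out by 50 kb on each side changed none of the counts by more than 1.5 times.

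The centromeric desert was sparse in every peak list, with 10 fMaSC, 8 basal, 7 luminal progenitor and 6 mature luminal peaks. Densities were 13.3, 10.7, 9.33 and 8.00 peaks per Mb, each below the genome-wide value of its list. All types shared a strong region at chr2:74415886-74417822, with 25.8 in fMaSC, 26.5 in basal, 25.8 in luminal progenitor and 24.7 in mature luminal cells. For the first 3 these were the highest folds of the desert, and for mature luminal cells the second highest. Whether this region lies at Lnpk, the protein-coding gene before Evx2, is not known, since no gene was placed in mm9. Another region shared by all, chr2:73904715-73905181, had folds of 7.34, 5.39, 7.27 and 7.47 in that order. The basal peak of fold 21.3 and the luminal progenitor peak of fold 18.9 at the window's start overlapped it by a few bases. The fMaSC and mature luminal peaks at that place, with folds of 15.4 and 18.9, ended 0.2 kb before the window and are not counted among its peaks, although the union region they share is.

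A luminal site lay at chr2:73931287-73932041. Mature luminal cells had a fold of 24.9 there, at rank 2552 of 61584 peaks, and luminal progenitor cells had 4.99, at rank 43499 of 60030. Neither fMaSC nor basal cells had a peak at that site, and the nearest fMaSC peak was 4.7 kb from the UAR that covers it. Further on, chr2:73937004-73938498 had folds of 13.1 in luminal progenitor and 14.9 in mature luminal cells, 5.32 in fMaSC and no basal peak. The same part of the desert also held fMaSC peaks of no other type, of which chr2:73926153-73926510 had a fold of 5.57, chr2:73958074-73958302 had 4.81 and chr2:73961483-73961806 had 6.33.

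Other regions were shared by fMaSC and basal cells alone. At chr2:73763128-73763518 the folds were 11.6 in fMaSC and 6.68 in basal cells, and at chr2:74138424-74138830 they were 7.09 and 4.53. At chr2:74140145-74141390 fMaSC had 10.9 and basal cells up to 6.25. Mature luminal cells alone had peaks at chr2:73870632-73870831 (5.23) and chr2:74408395-74408842 (7.97), and luminal progenitor cells alone at chr2:74329330-74329529 (4.16). The longest stretch without any peak ran 187.9 kb, from 74141391 to 74329329, and for mature luminal cells alone it was 469.9 kb.

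The telomeric desert held 31 fMaSC, 27 basal, 14 luminal progenitor and 18 mature luminal peaks, or 31.3, 27.3, 14.1 and 18.2 per Mb. The fMaSC density was near that list's 31.0 per Mb genome-wide, and the other 3 were below theirs. Most of these peaks were crowded at the far end. The last 200 kb of the window, a stretch chosen after the counts had been seen, held 17 of 31 fMaSC peaks (54.8%) and 18 of 27 basal peaks (66.7%). It held 12 of 14 luminal progenitor peaks (85.7%) and 14 of 18 mature luminal peaks (77.8%). In the order fMaSC, basal, luminal progenitor and mature luminal, that is 85.0, 90.0, 60.0 and 70.0 peaks per Mb in that stretch, against 17.7, 11.4, 2.53 and 5.06 in the rest of the desert. Where the desert ends and the genes beyond Mtx2 begin was not placed in mm9.

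In the part of the telomeric desert nearer the cluster, 14 of 19 union regions had peaks of fMaSC or basal cells only, against 38.6% of union regions genome-wide. Of the 14, 7 were fMaSC alone, 3 basal alone and 4 both. The strongest, singled out after the values were seen, was chr2:74884802-74885730, with a fold of 16.2 in fMaSC (rank 12135 of 79910) and 18.1 in basal cells (rank 11480 of 80294). Both were above their list medians, and the other 3 shared regions were not. At chr2:74899699-74900217 the folds were 5.57 and 6.04, at chr2:74975444-74976362 they were 5.82 and 6.90, and at chr2:75243488-75244493 they were 6.84 and 5.17. The 7 regions of fMaSC alone, from chr2:74771345-74771839 to chr2:75376040-75376395, had folds between 4.30 and 6.33.

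Luminal progenitor and mature luminal cells had few peaks in this stretch. Luminal progenitor cells had the region next to the cluster and chr2:75062574-75062971, with a fold of 6.65 beside 4.81 in fMaSC. Between those 2 peaks lay 397.8 kb without a luminal progenitor peak. Mature luminal cells had 4 peaks: the region next to the cluster, chr2:74952394-74952903, which fMaSC (8.61) and basal cells shared, and 2 of their own. One of these, chr2:75130031-75130959, had a fold of 13.9 (rank 14738 of 61584), and the nearest peak of another type lay 12.4 kb from the UAR that covers it.

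At the far end, all 4 types shared the strongest regions. At chr2:75495901-75498394 the folds were 30.1 in fMaSC, 24.8 in basal, 16.2 in luminal progenitor and 27.4 in mature luminal cells. At chr2:75480424-75482637 they were 24.8, 26.7, 16.6 and 23.7, and at chr2:75540387-75543657 they were 24.3, 24.1, 20.0 and 25.4. Of 24 union regions there, 6 were shared by all types, against 21.7% of union regions genome-wide. Another 7 of the 24 had fMaSC or basal peaks only, against 38.6% genome-wide. Neither difference was tested.

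**Figure D3:**
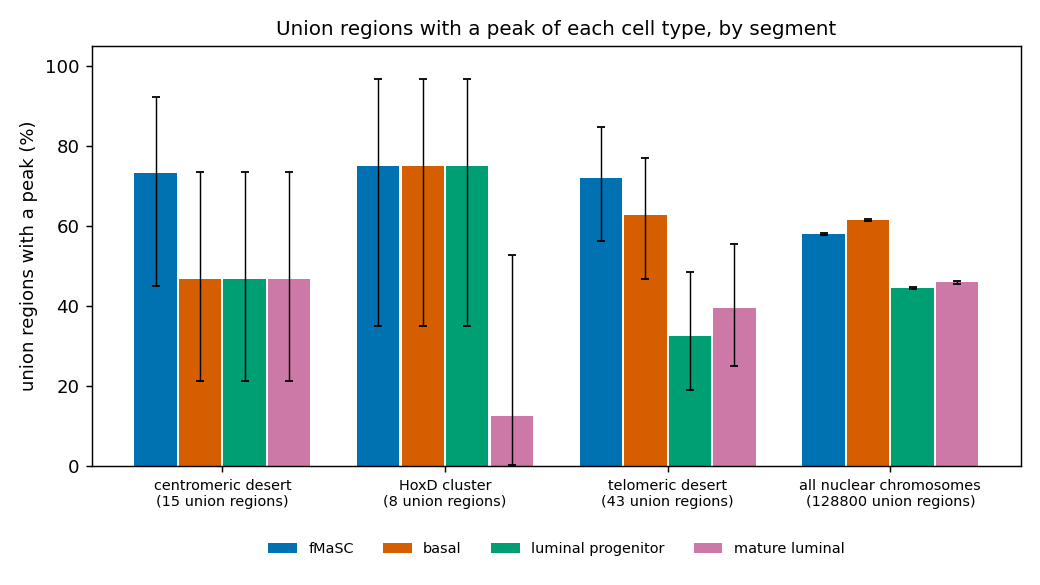
Share of union regions (vertical axis, percent) with a peak of each cell type in the 3 segments and over all nuclear chromosomes, with exact binomial 95% intervals that cover counting error of regions only. In the cluster segment 3 types had a peak in 6 of 8 regions and mature luminal cells in 1 (interval 0.316 to 52.7%). In the centromeric desert mature luminal cells had a peak in 46.7% of regions (interval 21.3 to 73.4%). Both intervals include their 45.9% genome-wide. The desert's share counts the region at the window's start, whose mature luminal peak ended before the window.

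Over the whole window there were 66 union regions. Peaks of fMaSC alone made up 19.7% of them, against 13.5% genome-wide, and fMaSC with basal cells 13.6% against 9.63%. Regions of basal cells alone were 10.6% against 15.5%. For mature luminal cells alone it was 9.09% against 12.2%, and for luminal progenitor cells alone 3.03% against 4.76%. Regions shared by all 4 types were 16.7% against 21.7%. Put together, 29 of 66 regions (43.9%, exact interval 31.7 to 56.7%) had peaks of fMaSC or basal cells only, against 38.6% genome-wide. The interval covers counting error of regions only, neighbouring regions are not independent, and the difference was not tested. The share was higher in the part of the telomeric desert nearer the cluster, 14 of 19, than at its far end, 7 of 24, a split that was set after the counts had been seen.

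Regions with a peak in a single type held mostly weak peaks. Regions with a peak in 1 type were 42.4% of the window's union regions, against 46.0% genome-wide. Of these 28 regions, 1 reached the median fold of its list, the mature luminal peak of fold 13.9. Folds by sharing were not counted genome-wide, so this weakness cannot be called a trait of the window. The 13 regions of fMaSC alone ran from 4.30 to 6.33 and the 7 of basal cells alone from 4.10 to 7.54. In regions with a peak in all 4 types the median folds were taken over the window's peaks. They were 14.3 for 10 fMaSC, 21.3 for 11 basal, 16.2 for 11 luminal progenitor and 18.9 for 11 mature luminal peaks. Peaks that ended before the window were left out. Weak peaks lie nearer to the calling threshold, so a type without a peak at such a region may have had signal just below it, which was not tested.

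**Figure D4:**
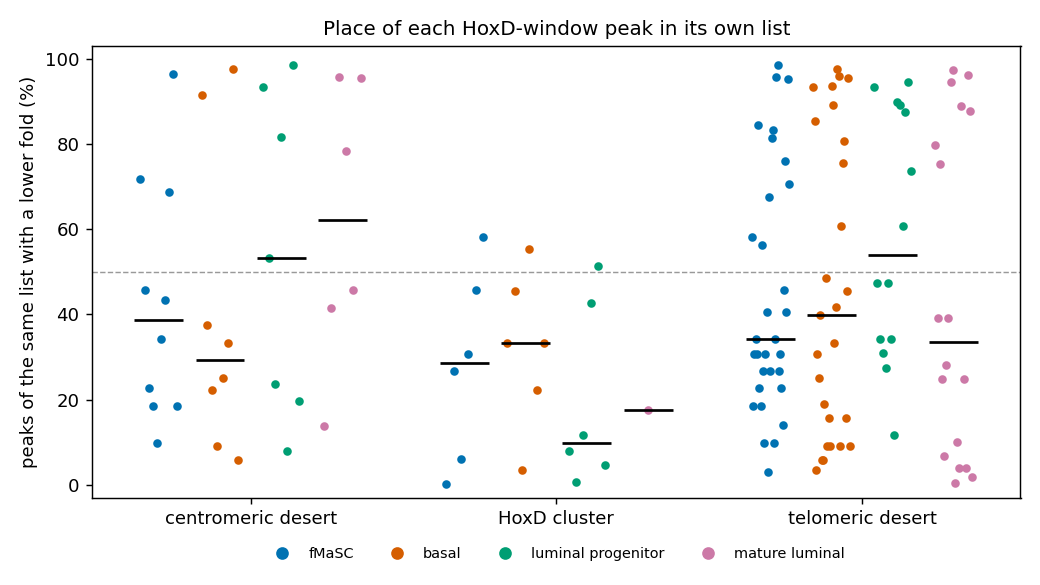
Each window peak by segment, with the percent of its own list that has a lower fold on the vertical axis; black bars are medians and the dashed line is the middle of a list. The cluster medians are 28.7% for fMaSC, 33.2% for basal, 9.85% for luminal progenitor and 17.6% for mature luminal cells, while both deserts also hold peaks above 90%.

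The UAR and URR lists gave 3 entries in the window, none in the cluster segment: 2 mature luminal UARs and 1 basal UAR. No fMaSC UAR, luminal progenitor UAR or URR of any type lay in the window. Genome-wide these lists were sparse, with 0.475 fMaSC UARs, 0.119 luminal progenitor UARs and at most 0.399 URRs of a type per Mb. At such densities an empty window of 1850 kb says little about the locus. The same holds for the cluster segment of 110 kb in every UAR and URR list. The mature luminal UAR at chr2:73931201-73932299 covers the luminal site of the centromeric desert described above. Its score was 72176, the highest of 3282 mature luminal UARs, and 2.48 times the next, at 29116. The scale of this score is not stated in the sources used here, so only its place in the list can be read. The other, at chr2:75129701-75131099, covers the mature luminal peak of fold 13.9 and had a score of 1854, at rank 1214.

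The basal UAR lay at chr2:75526201-75527999, in the crowded end, with a score of 330 at rank 5095 of 5144. It held a basal peak of fold 16.2, an fMaSC peak of 6.84 and a mature luminal peak of 5.98. So it was near the bottom of its list and shared with other types. Neither mature luminal UAR had an fMaSC or basal peak, but the first of them also held a luminal progenitor peak of fold 4.99. Of the window's mature luminal peaks, 2 of 25 overlapped a mature luminal UAR, against 6.12% of that list genome-wide. For basal peaks it was 1 of 41 against 7.67%. No fMaSC peak of 47 and no luminal progenitor peak of 27 overlapped a UAR of its own type, where the genome-wide shares were 1.70% and 0.583%. Per Mb, the window held 1.08 mature luminal UARs against 1.27 genome-wide, and 0.541 basal UARs against 2.00. None of these differences was tested.

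In the tumour comparison, the authors' deposited table of regions closed in luminal SOX10-high PY230 cells had 3 entries in the window, and that of open regions had 2. For the closed list that is 1.62 entries per Mb of the window against 5.87 per Mb genome-wide, and for the open list 1.08 against 1.25 per Mb. Neither difference was tested. None lay in the cluster segment, which is only 110 kb long. Both mature luminal UARs met a closed region. In the authors' deposited table the closed region at chr2:73931101-73932199 had a score of 619, at rank 1548 of 15108, and shared 999 bp with the first UAR. The closed region at chr2:75129801-75130999 had a score of 2586 in the authors' deposited table, at rank 112, and lay wholly within the second UAR. Their order by closed score was thus the opposite of that by UAR score. Genome-wide, 83.1% of mature luminal UARs overlapped a closed region. Another closed region, chr2:75132501-75133799, followed 1.5 kb after the mature luminal peak, with a score of 107 in the authors' deposited table at rank 8307 and no peak of any normal type. Together with its neighbours it made 1 run of 3 entries from 75129701 to 75133799, the only run of 3 in the window.

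The open regions lay apart from these. In the authors' deposited table chr2:74300501-74301899 had a score of 82.9, at rank 584 of 3208, and no normal type had a peak there. The nearest peak, of luminal progenitor cells, was 27.4 kb away. The open region at chr2:75445801-75446999 had a score of 57.3 in the authors' deposited table, at rank 1107. It shared 492 bp with the edge of a basal peak of fold 22.9 at chr2:75446508-75448528, and the fMaSC and luminal progenitor peaks of that region began 0.3 and 0.4 kb beyond it.

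Read against the whole lists, the closed regions met 2 of 25 window peaks of mature luminal cells, against 21.6% genome-wide. They met 1 of 27 luminal progenitor peaks, against 8.41%. No fMaSC or basal peak of the window met one, where the lists as a whole had 5.27% and 6.03%. The open regions met 1 of 41 basal peaks, against 1.29%, and none of the fMaSC, luminal progenitor or mature luminal peaks, against 1.92%, 2.89% and 0.391%. These shares rest on 1 or 2 peaks each, or on none, and were not tested against the genome-wide values. The 1 called basal peak drops out when the shared part must cover at least 50% of the peak.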

How the data were processed

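ATAC-seq was done on nuclei of sorted mouse cells, per the protocols in the labels. MACS2 2.1.1, SICER, bedtools 2.20.1, SAMtools 1.3.1, Bowtie 0.12.8, FastQC and mm9 are listed in the submitters' processing notes, without role or order. Per the file names given in the labels, peaks were called with MACS2 at a q-value of 0.001 on both samples of a normal type together, and each value is the fold, a ratio of enrichment, that the authors deposited. The UAR, URR and PY230 lists hold a score deposited by the authors on a scale not stated in the sources used here, and their edges lie on a 100 bp grid. How Tn5 offsets, duplicates and repeats were treated is not stated either, and each could add or remove weak peaks. The lists hold no counts and no values per sample, so depth is unknown, replicates could not be compared and no test was made.

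Coordinates are 1-based mm9. Peak lists were kept as deposited. In the grid lists only the starts were moved by 1 base, so the ends printed for them may be 1 base short. Overlap meant at least 1 shared bp, and an entry belonged to the segment that held its midpoint, except that entries reaching into the window with a midpoint outside it went to the nearest desert. Union regions were made by merging overlapping peaks of the 4 lists on 20 nuclear chromosomes, which is the meaning of genome-wide. Intervals are exact (Clopper-Pearson, 95%). Python 3.11.15, pandas 2.3.3 and scipy 1.17.1 were used, and overlaps and merging were checked against bedtools 2.31.1 on simulated lists. Named are all UAR, URR and PY230 entries, the 3 peaks of highest fold per list and segment and all cluster regions, and other peaks were named after their values had been seen. The members, the window and the lists were chosen with earlier results of these data known. Alternatives were other segment edges, merging distances, peak widths, overlaps and fold minimums.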

Additional observations from a re-analysis of the deposited data

How the results depend on the processing

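Widening the cluster by 50 kb on each side, merging entries within 500 bp and setting all peaks to 500 bp moved no count by over 1.5 times, in 19, 19 and 9 values. Counts of peaks depended on the fold minimum, which by construction leaves fewer peaks. When peaks below their list's median fold were dropped, the centromeric desert, the cluster and the telomeric desert held 3, 1 and 11 fMaSC, 2, 1 and 11 basal, 4, 1 and 7 luminal progenitor and 3, 0 and 7 mature luminal peaks. With each list limited to its strongest 30015 peaks, the counts were 3, 0 and 9 for fMaSC, 2, 0 and 9 for basal, 4, 1 and 7 for luminal progenitor and 3, 0 and 7 for mature luminal cells. In that setting the union regions shared by all 4 types fell to 0 in the cluster and 4 in the telomeric desert. Those of fMaSC or basal cells only fell to 2, 0 and 5 over the 3 segments, and those with a mature luminal peak to 4, 0 and 7. The difference between mature luminal and the other types in the cluster therefore rests on peaks below the list medians. The luminal progenitor share met by closed regions became 0 in that setting, as did the basal share met by open regions at 50% overlap. The other shares rose with the strongest peaks, but only because fewer peaks were left to divide by. The mature luminal share in UARs and that met by closed regions each went from 8.00% of 25 to 20.0% of 10 peaks. The basal share in UARs and that met by open regions each went from 2.44% of 41 to 9.09% of 11 peaks. The called peaks stayed the same in number, and no genome-wide share was computed for the strongest peaks. Leaving out the last 200 kb of the window, chosen after seeing the data, left 14 fMaSC, 9 basal, 2 luminal progenitor and 4 mature luminal peaks in the telomeric desert. No paired analysis was possible because the results come from no test and each list pools its samples. Leaving out a replicate was not possible for the same reason.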

Other observations

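The promoter table was also searched, on both strands, for the short motifs of transcription factor families of the mammary gland, as a description of letters and not of binding. In the 11 promoters of the member genes, the AP-1 motif TGANTCA was found in 1, against 7.81% of all promoters of that length. The SOX letters ACAAAG or ACAATG were found in 3 of 11, against 28.6%. The FOX letters TGTTTAC were found in none of the 11, against 3.65%, and the estrogen response element in none, against 0.0548%. No match says only that these letters are not in the 300 bases searched.

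The longest stretches without a peak differed between the lists. In the centromeric desert they were 274.9 kb for both fMaSC and basal cells, 390.8 kb for luminal progenitor and 469.9 kb for mature luminal cells. In the telomeric desert they were 131.7 kb for fMaSC, 219.8 kb for basal, 397.8 kb for luminal progenitor and 293.4 kb for mature luminal cells. Lists with fewer peaks have longer stretches without one, and this was not adjusted for.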
